A study of Canis lupus familiaris with 77 samples.

Results

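The gonadal microRNA (miRNA) cfa-miR-202 was followed across 16 tissues of the beagle dog, as 1 of the 650 miRNAs detected in the series. It was taken by its name in the deposited table, where 1 entry carries the dog name together with the human and rat names of the 5p arm of miR-202. An miRNA hairpin can give rise to 2 mature strands, a 5p and a 3p arm, and no other entry of the table carries a miR-202 name, so the values below belong to the 5p arm. Values were measured by miR-seq, the sequencing of small RNA, and are given as reads and as RPM, the reads per 1000000 reads on miRNAs in the same library.

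miRNAs are short RNAs that guide Argonaute proteins to messenger RNAs and lower the stability or translation of those targets. miR-202 is known from the gonads of vertebrates. In the mouse testis it has been placed in Sertoli cells, the somatic cells that support the germ line, where SOX9 acts upstream of it, and in spermatogonia. It is also known from the granulosa cells of the fish ovary. In the gene table of the dog assembly UU_Cfam_GSD_1.0, MIR202 lies between VENTX, a homeobox gene, and ADAM8, which encodes a metalloprotease.

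The tissues came from untreated male beagles, 5 dogs of 10 months of age that were perfused with phosphate buffered saline before the organs were taken. There were 5 samples of each of 14 tissues (testis, liver, heart, lung, skeletal muscle from the quadriceps, kidney, thymus, brain, pancreas, duodenum, jejunum, ileum, bone marrow and plasma), 4 of colon and 2 of sciatic nerve. All 76 samples share breed, sex and lack of treatment, so tissue is the only labelled difference, and no ovary was sampled. Each testis sample is a homogenate of frozen sections with mixed cells, and the region that was cut is not given. In such a sample, fewer cells of a type and less RNA per cell cannot be told apart. Libraries held between 157871 and 7896424 reads on miRNAs, with a median of 1364823.

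Testis sample 3 stood apart from the other testis samples and was low in the miRNAs of the germ line. With 2027090 reads it was the deepest testis library, while the other 4 held between 219585 and 287166. Its summed level of miR-34b, miR-34c, miR-449a and miR-449b was 701 RPM. These are known from meiotic and later male germ cells and from ciliated epithelium. The sum was below the 2134 RPM of the highest brain sample, but above the brain median of 153 RPM. It was also above every sample of the other tissues outside testis, the highest at 207 RPM in lung. Testis sample 2 lay between sample 3 and the rest on these miRNAs, at 5368 RPM against 56061, 104748 and 89885 RPM in samples 1, 4 and 5. Summaries over the testis samples are therefore also given without sample 3, and in places without samples 2 and 3.

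In testis, cfa-miR-202 was among the more abundant miRNAs in 3 samples, lower in a further one, and near the limit of detection in the last. Testis sample 1 had 886 reads, or 3340.3 RPM (95% Wilson interval 3128 to 3567). Sample 4 had 1077 reads, or 4905 RPM (4621 to 5206), and sample 5 had 1535 reads, or 5345 RPM (5085 to 5619). These 3 differed by 1.60 times between the highest and the lowest. Sample 2 had 66 reads, or 241 RPM (189 to 306). Sample 3 had 1 read, or 0.493 RPM (0.0871 to 2.79), although its library was the deepest of the testis. The intervals cover counting error only, and those of samples 2 and 3 overlap neither each other nor those of the other samples.

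The mean of the testis samples was 2766 ± 2529 RPM (SD, n = 5), a coefficient of variation of 91.4%, and the median was 3340.3 RPM. The median fell to 1790.5 RPM without sample 4 or without sample 5, and was 1609 RPM with DESeq2 size factors in place of the read total. Without sample 3 the mean was 3458 ± 2311 RPM (SD, n = 4). Without samples 2 and 3, which was chosen after their values were seen, it was 4530.1 ± 1054 RPM (SD, n = 3), a coefficient of variation of 23.3%. Across all 5 samples the highest value was 10835.5 times the lowest (interval 1913 to 61382 from counting error), and without sample 3 it was 22.2 times the lowest.

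**Figure D1:**
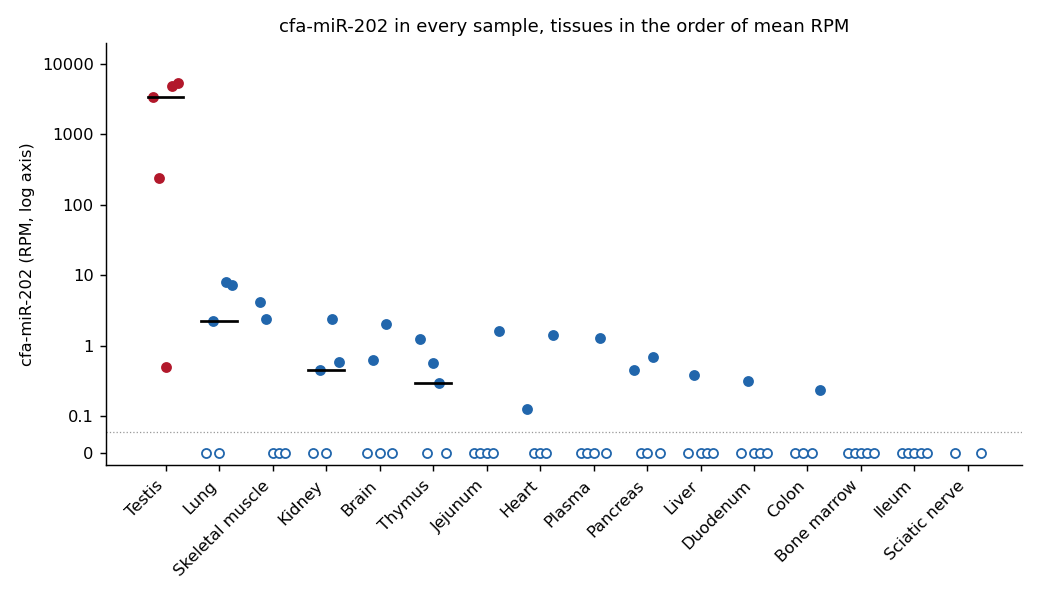
cfa-miR-202 in each sample, in RPM on a log axis with values of 0 as open circles below the dotted line. Each point is 1 sample, tissues stand in the order of their mean, and a black bar marks a tissue median above 0. Testis samples range from 0.493 to 5345 RPM, and no sample of another tissue is above 7.95 RPM.

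Among the miRNAs of each testis library, cfa-miR-202 ranked 28 of 396 detected in sample 1, 24 of 378 in sample 4 and 23 of 405 in sample 5. It ranked 97 of 357 in sample 2 and 397 of 444 in sample 3. By the testis median it ranked 28 of 650, 26 without sample 3 and 23 without samples 2 and 3. Its nearest neighbours in that order were rno-miR-151-3p, at a median of 3759 RPM in testis, and cfa-miR-449a, at 3159 RPM. They differed outside testis, where rno-miR-151-3p reached 23951 RPM in a single sample, cfa-miR-449a 43.2 RPM and cfa-miR-202 7.95 RPM. miRNAs of like abundance in testis thus differed widely in how far they were restricted to it.

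The testis samples held 3565 of the 3635 cfa-miR-202 reads of the series (98.1%). High tissue enrichment was judged in the study by the ratio of a tissue's median to the highest value in any other tissue. In testis this ratio was, for cfa-miR-202, 420.1. It was 518 without testis sample 3, 225 without sample 4 or without sample 5, and 209 with DESeq2 size factors. A ratio above 5, the level taken for high enrichment, was reached in testis by 34 of the 650 miRNAs (5.23%). This count uses the ratio alone and is larger than the study's own list for testis. The study's text also limited high enrichment to miRNAs detected in few tissues. For cfa-miR-202, the testis mean was 5060.05 times the mean of 0.547 RPM over all other samples. It was 6325 times without sample 3 and 8286 times without samples 2 and 3. These values are a description without a test, since cfa-miR-202 was chosen with its testis level known. Testis samples 1, 2, 4 and 5 all lay above every sample of another tissue, the lowest of them by 30.3 times, whereas 15 samples of other tissues lay above testis sample 3.

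The miRNAs of the germ line were described next, for their levels in the same libraries. Their lists were chosen with earlier results of these data known, so calls in testis describe their levels and are no independent test. The miR-34 and miR-449 list had 7 entries in the table, both arms counted. All 7 passed the study's test for tissue enrichment in testis (ratio of means above 5 and an adjusted p under 0.05 in a two-sided exact rank-sum test, adjusted by Benjamini-Hochberg), as did 53 of all 650 miRNAs tested (8.15%). The median log2 difference of the list between testis and the other samples was 8.23, beside −0.11 over all miRNAs, and 8.53 beside −0.12 without sample 3. With edgeR's quasi-likelihood test 5 of the 7 were called, with DESeq2 6, and with the exact test after edgeR's filter on low counts 5. The largest level belonged to cfa-miR-34c. It had 49237, 4631, 582, 93353 and 80187 RPM in testis samples 1 to 5, and at most 1939 RPM outside testis. cfa-miR-449a had 3159, 332, 26.6, 4868 and 3980.3 RPM. For both, as for cfa-miR-202, samples 1, 4 and 5 were high, sample 2 was lower and sample 3 lowest.

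The miR-506 to miR-514 family is encoded in a cluster on the X chromosome and is known for its expression in the testis. It was chosen with earlier results of these data known, so its calls in testis are likewise a description. The table held 6 entries of it, cfa-miR-506, cfa-miR-507a, cfa-miR-507b, cfa-miR-508a, cfa-miR-508b and cfa-miR-514, and 6 of 6 were tissue enriched in testis by the same test, with a median log2 difference of 6.26, or 6.58 without sample 3. edgeR's quasi-likelihood test called 0 of the 6, since its filter on low counts removed them, and DESeq2 called 4. cfa-miR-506 had 841, 69.3, 0, 1371 and 1348 RPM in testis samples 1 to 5, with an adjusted p of 0.0120 in the exact rank-sum test. cfa-miR-508b had 659.8, 36.5, 0.493, 802 and 916 RPM. The summed level of the family was 1783, 117, 0.493, 2619 and 2667 RPM, against at most 6.82 RPM in a sample of another tissue, a lung sample. In sample 3, 5 of these 6 entries had no read, so the whole family had 1 read there, as cfa-miR-202 did.

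To find which miRNAs kept the most constant proportion to cfa-miR-202 in the testis, the SD over the 5 samples of the log2 ratio of counts to cfa-miR-202 was taken, with 0.5 added to both counts. A ratio within a library does not depend on the library total. Over the 143 miRNAs with a testis median above 100 RPM this SD had a median of 5.19 and a maximum of 9.81. The smallest were cfa-miR-506 (0.17), cfa-miR-508b (1.14), cfa-miR-508a (1.41), cfa-miR-8831 (1.53) and cfa-miR-363 (1.89). In sample 3 cfa-miR-506 and cfa-miR-508a had 0 reads and cfa-miR-202 had 1, so their log2 ratio there, −1.58, was set by the added 0.5. The lead of cfa-miR-506 rested on that value. Without sample 3, whose ratios rest on 1 read, the same 5 were nearest, at 0.11, 0.14, 0.07, 0.17 and 0.12. cfa-miR-363 belongs to an X-linked cluster related to miR-17 to miR-92. cfa-miR-34c came at rank 13, with an SD of 2.49, and followed these 5 at rank 6 without sample 3, with an SD of 0.21, where the median over the 143 was 1.88. Its distance from the 5 thus rested on sample 3. There cfa-miR-34c had 1180 reads to the 1 read of cfa-miR-202 (exact interval of the ratio 211.4 to 46647). Its ratio was at most 19.2 in the other testis samples, so the rise in sample 3 was larger than the counting error of that 1 read.

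For each cfa-miR-202 read there were 0.252, 0.288, 0.279 and 0.252 reads of cfa-miR-506 in testis samples 1, 2, 4 and 5. The exact 95% intervals of these ratios overlap, from 0.216 to 0.292 in sample 1 to 0.163 to 0.486 in sample 2. The ratio therefore moved by 1.14 times while the level of cfa-miR-202 itself moved by 22.2 times over the same samples. cfa-miR-506 was picked for the constancy of this ratio in these samples, so the value is a description. The contrast rests on sample 2, since cfa-miR-202 differed by 1.60 times among samples 1, 4 and 5. The ratio of cfa-miR-363 was 1.20, 1.44, 1.25 and 1.25 in these samples, and that of cfa-miR-508b was 0.198, 0.152, 0.163 and 0.171.

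In sample 3 the single read of cfa-miR-202 set wide limits. cfa-miR-506 had 0 reads there, which allows a ratio of up to 39, and cfa-miR-508b had 1. Against so low a count, 141 of the 143 miRNAs had a higher ratio in sample 3 than in any other testis sample, and in 139 the lower exact limit was above that range as well. Among them were cfa-miR-363, at 35 (exact interval 5.88 to 1421), cfa-miR-449a, at 54 (9.29 to 2172), cfa-miR-34b, at 61 (10.5 to 2448), and cfa-miR-34c, at 1180 (211.4 to 46647). In samples 1, 2, 4 and 5 the ratio of cfa-miR-34c lay between 14.7 and 19.2 and that of cfa-miR-449a between 0.745 and 1.38. A higher ratio in sample 3 was thus general to the testis miRNAs and not particular to those of the germ line.

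**Figure D2:**
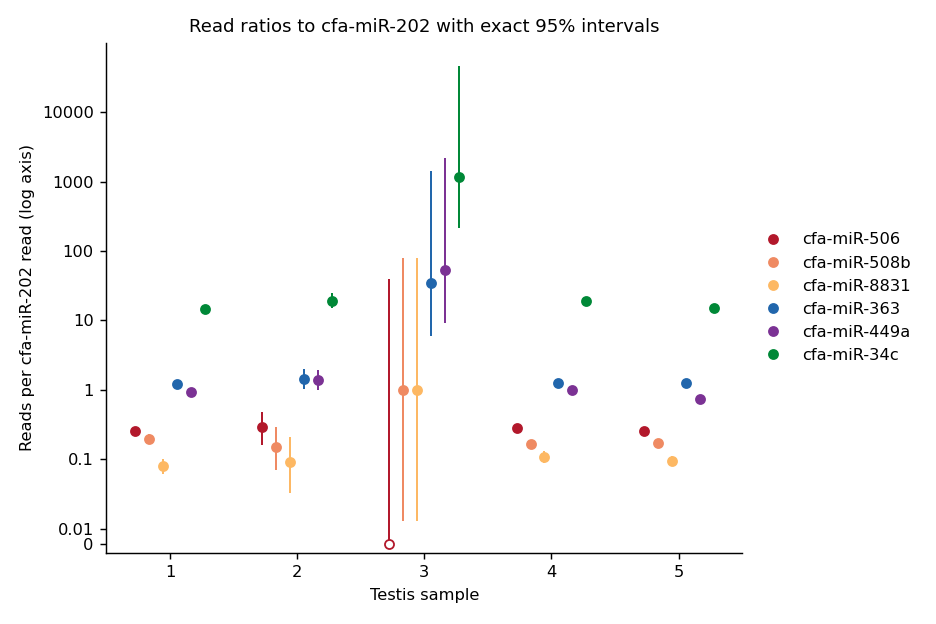
Reads of 6 miRNAs per read of cfa-miR-202 in each testis sample, on a log axis, with exact 95% intervals for counting error as vertical lines and the ratio of 0 as an open circle. The ratios of cfa-miR-506 stay between 0.252 and 0.288 in samples 1, 2, 4 and 5, and that of cfa-miR-34c is 1180 in sample 3 and at most 19.2 in the others.

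Markers of epithelium were high in the testis samples where cfa-miR-202 was low. The miR-141, miR-200, miR-429 and miR-205 list, known from epithelium, summed to 1900.1 RPM in testis sample 1, 8905 in sample 2, 16737 in sample 3, 41.0 in sample 4 and 101 in sample 5, a range of 408 times. Samples of pancreas held 24393 to 26047 RPM of it. cfa-miR-205, known from stratified and basal epithelium, had 415, 2028, 4495, 0 and 3.48 RPM in samples 1 to 5, and its highest value outside testis was 2064 RPM. None of the 11 entries of this list was called in testis against the other tissues, beside 87 of all 650 miRNAs higher (13.4%) and 26 lower (4%). Entries of the list differed widely among the testis samples, so a test over all 5 says little on the epithelial content of single samples.

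cfa-miR-143, of smooth muscle and other mesenchyme, had 90496 RPM in sample 1, 283034 in sample 2, 236239 in sample 3, 74404 in sample 4 and 81646 in sample 5, so that it too was highest in samples 2 and 3. The endothelial list (miR-126) summed to between 2408 and 6948 RPM and the blood list to between 1418 and 8856 RPM, both lowest in sample 3. Of the 2 entries of miR-126, both were lower in testis than elsewhere, and of the 8 of blood 3 were lower, beside 26 of all 650 miRNAs (4%). Of the 10 spermatogonial entries 0 were tissue enriched and 2 were lower, cfa-miR-221 and cfa-miR-222. Of the 4 smooth muscle entries 1 was higher, hsa-miR-143-5p, beside 87 of all 650 (13.4%). The striated muscle, brain, liver, pancreas and intestine lists had no entry called. What part the epithelial and smooth muscle content had in the low cfa-miR-202 of samples 2 and 3 was not tested.

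**Figure D3:**
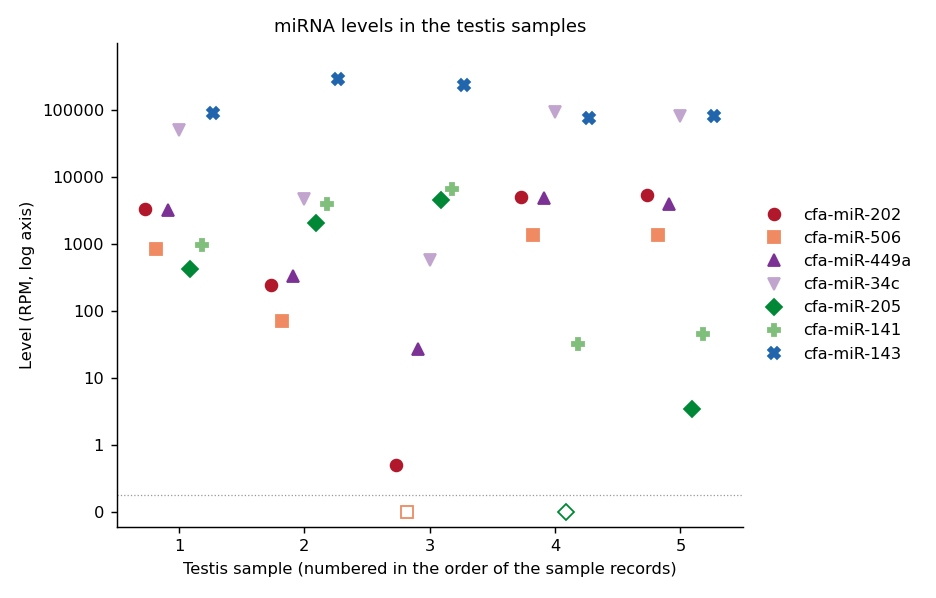
Levels of 7 miRNAs in the 5 testis samples, in RPM on a log axis, with values of 0 as open symbols below the dotted line. cfa-miR-202, cfa-miR-506, cfa-miR-449a and cfa-miR-34c are lowest in sample 3, where cfa-miR-205 and cfa-miR-141 are highest, at 4495 and 6493 RPM.

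Outside testis, cfa-miR-202 was close to the limit of detection. Of the 71 samples of the other 15 tissues, 49 had no read and 22 had at least 1. No more than 4 had over 3 reads, kidney sample 4 with 14, lung sample 5 with 13, lung sample 4 with 7 and skeletal muscle sample 1 with 6. Summed over all 71, 70 reads gave 0.567 RPM (95% Poisson interval 0.442 to 0.716). A count of 0 allows up to 3 reads, which came to between 0.380 and 19.0 RPM by library. In the shallowest libraries, among them those of bone marrow (12.6 to 18.5 RPM), a count of 0 thus did not exclude a level above the highest one seen outside testis. Libraries with a read had a median depth of 1760231 reads and those without one of 971311. A count of 0 is therefore not an absence.

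**Figure D4:**
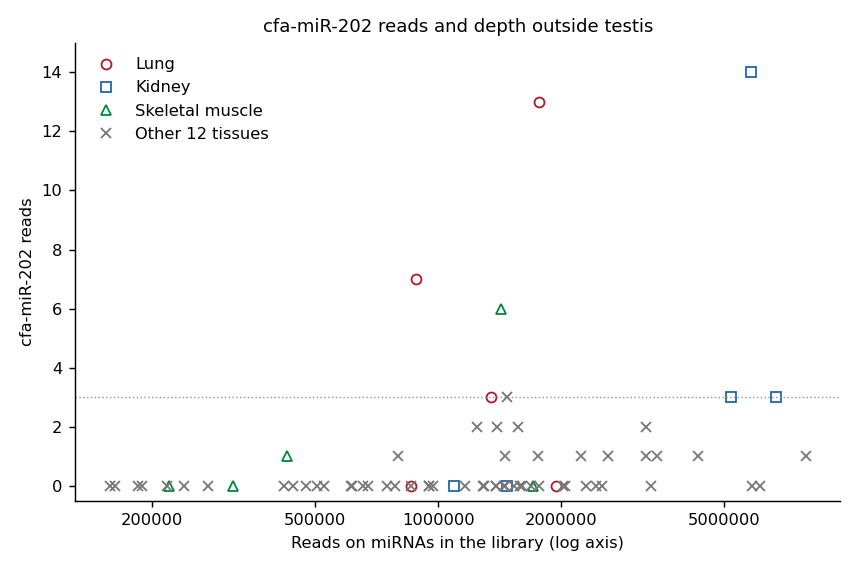
cfa-miR-202 reads against the number of reads on miRNAs (log axis) in the 71 samples outside testis, with the dotted line at 3 reads. The 4 samples above the line are kidney sample 4, lung samples 4 and 5 and skeletal muscle sample 1.

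Lung followed testis in the order of mean level. Its samples had 0, 3, 0, 7 and 13 reads of cfa-miR-202, or 0, 2.23, 0, 7.95 and 7.36 RPM, a mean of 3.51 ± 3.90 RPM (SD, n = 5). The lung sample with 0 reads and 1943854 in all was the deepest of the lung, so the spread did not follow depth. Skeletal muscle came next at 1.31 ± 1.91 RPM (SD, n = 5), with 6 and 1 reads in samples 1 and 2 and none in the other 3. Kidney had 0.689 ± 1.00 RPM (SD, n = 5) from 20 reads in 3 samples, 14 of them in sample 4. Both rest mainly on 1 sample.

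Brain had a mean of 0.531 RPM, thymus 0.423, jejunum 0.321 and heart 0.312. Plasma, the fluid in which miRNAs released by injured tissue are sought, had 0.255 RPM, from 2 reads in 1 of its 5 samples, which summed over the tissue gives a 95% Poisson interval of 0.0376 to 1.12 RPM. Pancreas had 0.227 RPM, liver 0.0771, duodenum 0.0621 and colon 0.0580, with 1 read each in the last 3. No read was found in the bone marrow, ileum and sciatic nerve samples, where 3 reads over the summed tissue correspond to 3.02, 0.282 and 1.405 RPM. The zero of ileum was thus the best supported by depth, and that of bone marrow the least.

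Each tissue other than testis was compared with all other non-testis samples by the two-sided exact rank-sum test, adjusted over the 624 miRNAs detected in them. cfa-miR-202 was called in 0 of 15 tissues, where 12.5% of all tests of miRNAs in these tissues were called. Lung had the lowest p, 0.0249 by the exact test and 0.146 after adjustment, at 3.51 RPM against 0.322 RPM in the rest, and it was the 1 tissue under 0.05 before adjustment. With edgeR's quasi-likelihood test lung was called (FDR 0.0273), in a fit without edgeR's filter on low counts, which cfa-miR-202 did not pass. The exact test also called lung after each library was thinned once to the size of the smallest (adjusted p = 0.0305). At that depth, 157871 reads, no sample outside testis kept more than 1 read, so this call rested on single reads of 1 random draw. DESeq2 gave an adjusted p in 4 of the tissues, none of them lung, with a lowest of 0.387, so it said nothing on lung. The call in lung thus differed between the exact test and edgeR, and with the depth.

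The 14 pairs of neighbours in the order of mean level outside testis were compared by two-sided exact permutation tests of the mean. Neighbours in an order are the pairs that differ least, and 2 pairs had no read in either tissue, which leaves 12 with a read. In several of these, too few samples had a read for the test to reach 0.05. Liver and duodenum had a read in 1 of 5 samples each, colon in 1 of 4 and bone marrow in 0 of 5. None of the pairs passed, and 0 of 14 had an unadjusted p under 0.05, which for such pairs was fixed in advance. The lowest was that of lung against skeletal muscle (exact permutation p = 0.365, adjusted p = 1), where 5 samples against 5 could reach 0.00794. The order below testis was therefore not resolved between neighbours.

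The 4 libraries outside testis with more than 3 cfa-miR-202 reads were examined for the miRNAs that kept a constant proportion to it in testis. Together they held 40 reads of cfa-miR-202, 10 of cfa-miR-506, 1 of cfa-miR-508b, 0 of cfa-miR-508a and 4 of cfa-miR-8831. cfa-miR-506 was read in all 4, with 1 read beside 14 of cfa-miR-202 in kidney sample 4, 4 beside 13 in lung sample 5, 4 beside 7 in lung sample 4 and 1 beside 6 in skeletal muscle sample 1, so no proportion can be read from them. Over the 22 libraries with a cfa-miR-202 read it was found in 15, with 29 reads beside 70. The 4 libraries also held 460 reads of cfa-miR-34c and 805 of cfa-miR-363, which are present at higher levels outside testis. Where these reads came from was not tested.

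Across tissues, the pattern of cfa-miR-202 was compared with that of the 266 miRNAs with a median above 100 RPM in at least 1 tissue, by the cosine of the 16 tissue medians. A cosine above 0.99 was shared by 14 miRNAs. The nearest were cfa-miR-508a, cfa-miR-508b, cfa-miR-506, cfa-miR-8831 and cfa-miR-449a, whose highest median in a tissue other than testis was 0, 0, 1.54, 0.515 and 6.70 RPM. A cosine near 1 says here that 1 tissue holds nearly all of a miRNA, and it uses the testis median alone, not the spread among testis samples. Without sample 3, 4 of these 5 stayed among the nearest. cfa-miR-506, cfa-miR-508a, cfa-miR-508b and cfa-miR-8831 were among the nearest 5 by this measure and by the SD of the ratio in testis. By the median absolute deviation of that ratio, which passes over single samples, 1 of these 4, cfa-miR-508a, was among the nearest 5.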

How the data were processed

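Small RNA of 76 tissue samples was sequenced on libraries made with a TruSeq kit. The authors clipped adaptors, aligned reads to CanFam3.1 without mismatches, left out reads with more than 10 genomic locations and took as the count those covering 70% or more of a miRNA locus, annotated in dog or carried over from human or rat. The deposited table gives for each sample these counts, the total of reads on miRNAs, the RPM and the highest RPM of each miRNA over the authors' samples. RPM recomputed from the deposited counts differed by a relative 2.89e-09 at most. The RPM values were therefore tied to the deposited total. An miRNA not listed for a sample was set to 0 reads. There was 1 sample name that matched no labelled sample, and 1 labelled colon sample had no values. Neither was used. The unmatched name is that of a pool of sciatic nerve. The 2 sciatic nerve samples used carry names like those of single samples, though the study's text describes the nerve samples in more than 1 way. Labels name no dog. The sample names run through the solid tissues in the same order 5 times, but no source says that this order is by dog, and samples were not paired on it, so p-values measure the spread between samples. Replicates were numbered in the order of the sample records.

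The miRNA and the lists were chosen with earlier results of these data known. Named were cfa-miR-202, up to 6 members of the lists with values and others by count, the 5 miRNAs nearest to it by count ratio in testis, the 5 nearest by tissue medians and its neighbours in abundance. cfa-miR-205, cfa-miR-141, cfa-miR-143 and the called members of lists were named after their values were seen. The lists were germ cell (miR-34 and miR-449), miR-506 to miR-514, spermatogonia, smooth muscle, endothelium, blood, epithelium, striated muscle, brain, liver, pancreas and intestine. Testis against other tissues was not tested for cfa-miR-202. Lists were tested over all 650 miRNAs with the study's criteria. Tests were exact and two-sided, with Benjamini-Hochberg adjustment and a threshold of 0.05. Intervals are Wilson for a share, exact Poisson for a sum and exact binomial for a ratio, at 95%. Tools were Python 3.11.15 (scipy 1.17.1, pandas 2.3.3, numpy 2.4.6, matplotlib 3.10.9) and R 4.3.3 (edgeR 4.0.16, DESeq2 1.42.0), and procedures were tested on simulated data. Alternatives covered scaling, depth, filter, test, adjustment, the likeness measure and each sample left out.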

Additional observations from a re-analysis of the deposited data

Results flagged for a closer look

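In 7 of the 13 tissues with at least 4 samples and a read of cfa-miR-202, 1 sample lay far above the others of its tissue by Dixon's criterion for a single high value. Chance marks about 1 group in 20 of continuous values, a rate that does not hold for counts mostly at 0. Each value is the highest cfa-miR-202 level of the tissue. Kidney sample 4, with 14 reads, had 2.42 RPM. The others rested on 1 or 2 reads each, with 1.61 RPM in jejunum, 1.43 RPM in heart, 1.28 RPM in plasma, 0.385 RPM in liver, 0.311 RPM in duodenum and 0.232 RPM in colon. In 5 of the 7, jejunum, plasma, liver, duodenum and colon, all other samples were at 0, where any single read meets the criterion.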

How the results depend on the processing

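The testis median of cfa-miR-202 was 2146 RPM with TMM, 1609 with DESeq2 size factors, 3332 after thinning and 4905 without samples 2 and 3, and 1790.5 to 4122 RPM with 1 sample left out. The ratio of the median to the highest other sample was 244, 209, 526 and 617 in the same settings, and 225 to 518 with 1 sample left out. After thinning the highest other sample kept 1 read, so the value of 526 rests on that read. The highest over the lowest testis sample was 22.2 to 10835.5, with the lowest value when sample 3 was left out. Outside testis, the count of tissues called moved from 0 to 1, lung, after thinning and with edgeR run without its filter. It remained at 0 to 0 when 1 sample was left out, with a lowest adjusted p of 0.0777 in the exact test. Neighbour pairs stayed at 0 to 0. The germ cell list had 5 calls with edgeR, 6 with DESeq2 and 5 with filterByExpr. It kept 7 to 7 calls and the miR-506 to miR-514 list 5 to 6 with 1 testis sample left out, and the latter had 0 with edgeR and 0 with filterByExpr. By the median absolute deviation 2 of the 5 nearest miRNAs were shared, cfa-miR-363 and cfa-miR-508a, and 4 to 5 with 1 sample left out. filterByExpr gave no value for cfa-miR-202 outside testis, since it did not pass, and thinning none for the spread, since sample 3 had 0 reads left. The arms of miR-202 could not be compared, with 1 entry. No paired analysis was possible because the labels name no dog, and the order of the sample names was not taken as a pairing.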
